A study of Mus musculus with 8 samples.

Results

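The 34 genes described here carry glucose into the cell, take it through glycolysis to pyruvate and lactate, and pass pyruvate into the mitochondrion. Hif1a, a regulator of many of them, is included. They were taken by name, by their function and not by their values, from the 55276 gene symbols of a raw count table. All 34 were found and passed the filter on low counts, as did 17344 symbols in all. The table held bulk RNA-seq of esophageal epithelium from C57BL6 mice 14 to 15 weeks old, labelled as squamous cells, with no transgene, mutation or drug named in the labels. The epithelium was peeled from the muscle and dissociated with enzymes. Live cells (DAPI negative) that carried integrin beta-1, the gate for basal cells, were sorted by Cyto-ID, a dye of autophagic vesicles, into a Cyto-ID Low and a Cyto-ID High fraction. Each of 4 animals, Female1, Female2, Male1 and Male2, gave 1 library of each fraction, so that both fractions shared strain, age and gate and differed in the dye signal. The series title asks how basal cells rich in autophagic vesicles differ from the others in proliferation and self-renewal.

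Glycolysis splits glucose into pyruvate with a net gain of ATP in the cytosol. Hexokinases trap glucose by phosphorylation, phosphofructokinase makes the committed step, aldolase splits the sugar, and the payoff enzymes from Gapdh to Pkm recover ATP and NADH. Pyruvate is then either reduced to lactate by lactate dehydrogenase and exported through monocarboxylate transporters, or imported into mitochondria and turned into acetyl-CoA by pyruvate dehydrogenase, a complex that the Pdk kinases switch off. In stratified squamous epithelium, basal cells divide and their progeny move upward as they differentiate.

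Libraries held 26285150 to 28599954 counts in Low and 27486049 to 29301054 in High. Basal keratinocyte markers were present in both fractions but lower in High for 10 of 10 genes (summed 22032 to 26255 CPM in Low, 2882 to 4577 CPM in High). Of 12 suprabasal markers 11 were higher in High (summed 11245 to 28109 CPM in Low, 142022 to 243975 CPM in High). All 9 of 9 proliferation genes were lower in High. Krt4 and Krt13 took 0.858 to 2.53% of the counts in Low and 10.8 to 14.0% in High. The TMM factors that correct for such composition were 1.16 to 1.30 in Low and 0.679 to 0.944 in High. The High library of Male2 stood apart: it had the fewest genes with a count, 22208 against 24820 to 28266 in the others, and the lowest fibroblast marker sum, 42.1 CPM against 164 to 525 CPM. High Female2 had 114.7 CPM of gastric epithelium markers, against 18.6 CPM in its Low library and at most 1.03 CPM elsewhere. In bulk RNA, a smaller share of cells of a type and less RNA per cell cannot be told apart.

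High and Low cells differed in many of the 34 genes. With edgeR's quasi-likelihood test on all genes, 19 members (55.9%) passed a Benjamini-Hochberg adjusted p of 0.05, where 48.7% of all 17344 tested genes did. Of the members, 16 (47.1%) were higher in High, against 23.4% of all genes. Another 3 (8.82%) were lower, against 25.3%, and 15 did not pass. At least 2-fold differences were found for 9 members higher in High (26.5%; 13.3% of all genes), namely Hk2, Pfkfb3, Pfkfb4, Aldoa, Aldoc, Tpi1, Pgam1, Eno1 and Pdk4. Only Slc16a1 was lower by as much (2.94%; 15.3% of all genes). All 19 had the same sign in 4 of 4 animals, in the same libraries that the test used, so this is no separate support. For 16 members (47.1%) the 4 High and 4 Low values did not overlap, a share close to the 48.6% of all genes. The median log2 fold change of the 34 members was 0.22, beside −0.09 for all tested genes. The median over members of the High minus Low difference in log2 CPM was 0.14 and 0.33 for the females and 0.12 and 0.62 for the males, in the order of their numbers. It was largest in Male2, whose High library stood apart. When libraries were scaled by their total counts alone, with no correction for composition, the median of all genes shifted by −0.55 and the members' median to −0.35, and 9 members were higher and 13 lower, where 12.6% of all genes were higher and 49.1% lower. The share of all calls that were higher moved from 48.0% to 20.5%. The 9 members higher under both scalings were the 9 with at least 2-fold rises under TMM. With total counts Hk2 (log2 fold change 1.16), Pfkfb4 (1.53) and Aldoc (1.77) were still at least 2-fold higher, and the rest of the 9 were at 0.48 to 0.97. The members' median less that of all genes was 0.31 with TMM and 0.28 with total counts. It was 0.21 without High Male2, 0.17 without both libraries of Male2 and 0.47 without High Male1.

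**Figure D1:**
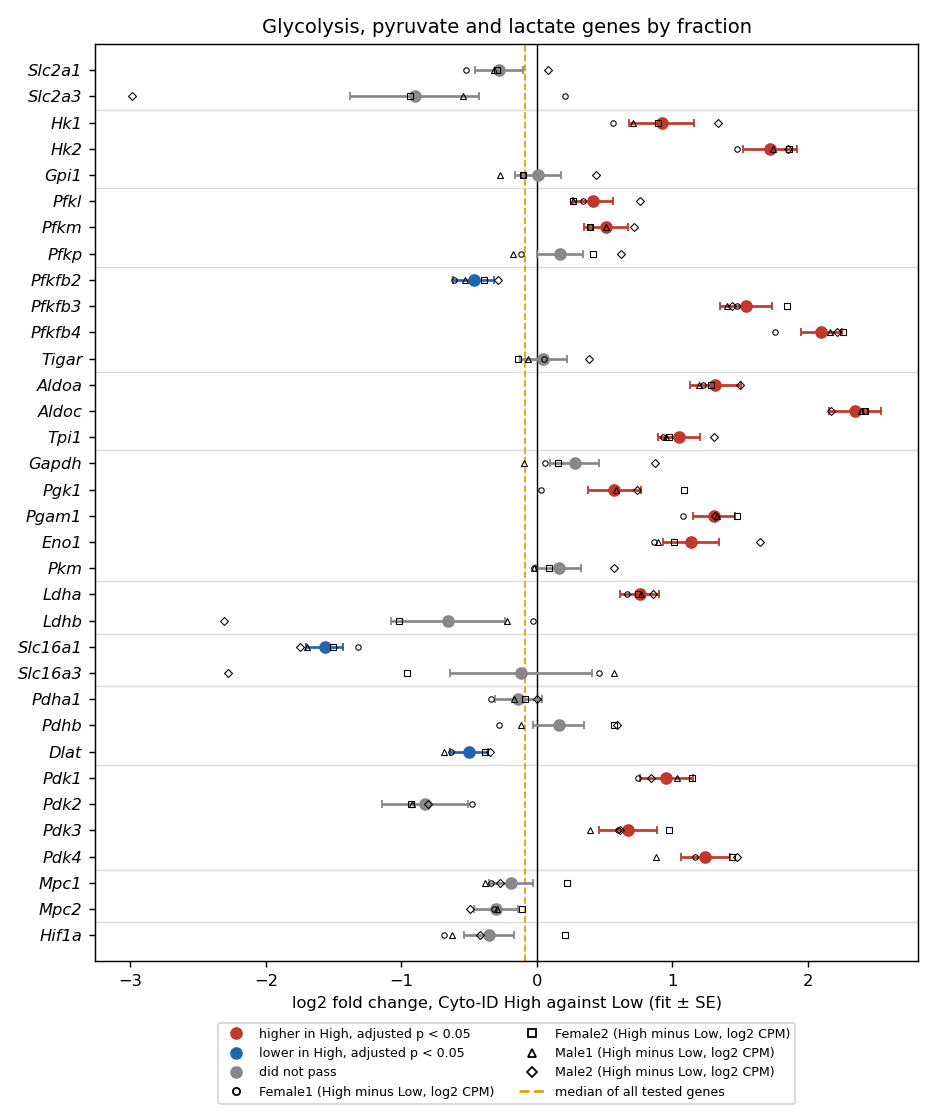
Log2 fold change of Cyto-ID High against Low for the 34 genes in pathway order (filled points, edgeR fit with SE), with the High minus Low difference of each animal in log2 CPM (open symbols); the dashed line is the median of all tested genes, −0.09. The points of 16 members lay to the right and of 3 to the left with an adjusted p under 0.05, and the 4 animals spread most for Slc2a3, Ldhb and Slc16a3; with total-count scaling all points shift to the left and 9 members stay higher.

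**Figure D2:**
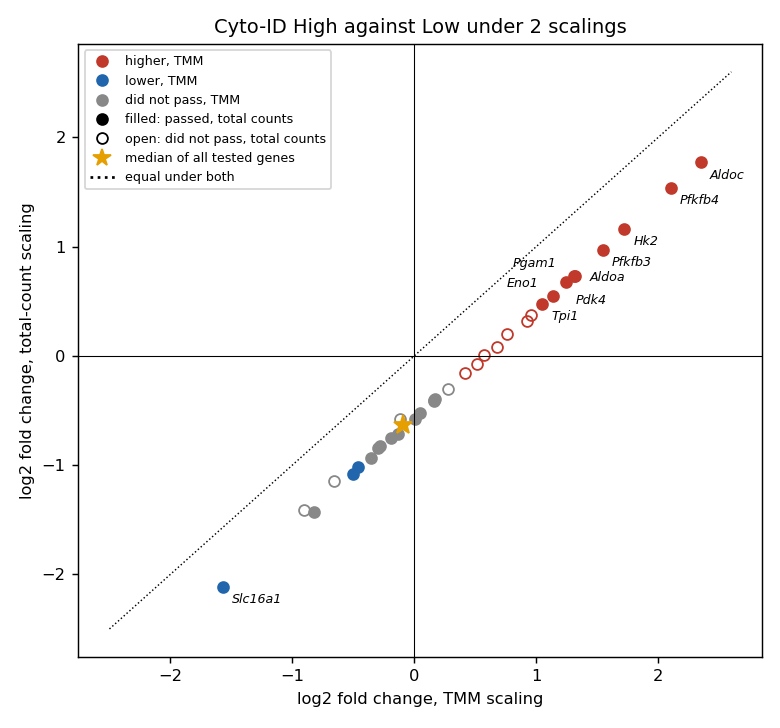
Each point is 1 of the 34 genes, with its log2 fold change under TMM scaling on the x axis and under total-count scaling on the y axis; the dotted line marks equal values and the star the median of all tested genes (−0.09 and −0.64). All points lie below the dotted line, filled red points are the 9 genes higher under both scalings, and Slc16a1 is the lowest.

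Promoters of members that rose and fell most are shown because many genes of glycolysis are known targets of hypoxia-inducible factor, whose response element has the core ACGTG. Among the members that passed the test, the rule took the largest rises, Aldoc (chr11:78322823-78323122, + strand) and Pfkfb4 (chr9:108991652-108991951, + strand), and the largest falls, Slc16a1 (chr3:104638414-104638713, + strand) and Dlat (chr9:50659731-50660030, − strand), with a mean of at least 5 CPM and a window in the table. Each is a RefSeq window of GRCm38.p6, 250 bases before to 50 after a transcription start, 5′ to 3′ on the gene's strand; capitals mark ACGTG or its reverse complement CACGT, and CACGTG, the E-box, which holds ACGTG.
Aldoc: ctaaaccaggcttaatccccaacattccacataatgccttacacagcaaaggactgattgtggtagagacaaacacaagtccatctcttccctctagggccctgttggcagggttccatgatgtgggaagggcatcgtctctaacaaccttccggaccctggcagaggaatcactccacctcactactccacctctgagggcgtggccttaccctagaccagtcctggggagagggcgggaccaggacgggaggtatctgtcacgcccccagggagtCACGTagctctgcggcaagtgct
Pfkfb4: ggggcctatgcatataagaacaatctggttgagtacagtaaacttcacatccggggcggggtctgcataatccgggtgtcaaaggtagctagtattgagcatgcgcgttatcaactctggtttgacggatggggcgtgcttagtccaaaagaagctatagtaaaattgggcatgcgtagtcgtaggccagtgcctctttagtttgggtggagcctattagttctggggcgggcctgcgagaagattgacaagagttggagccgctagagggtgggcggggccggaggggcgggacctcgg
Slc16a1: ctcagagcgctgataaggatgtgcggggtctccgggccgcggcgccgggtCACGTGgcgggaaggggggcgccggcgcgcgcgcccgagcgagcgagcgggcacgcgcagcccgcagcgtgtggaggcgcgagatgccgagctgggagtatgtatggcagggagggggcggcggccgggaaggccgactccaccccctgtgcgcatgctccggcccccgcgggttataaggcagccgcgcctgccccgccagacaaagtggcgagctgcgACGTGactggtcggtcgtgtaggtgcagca
Dlat: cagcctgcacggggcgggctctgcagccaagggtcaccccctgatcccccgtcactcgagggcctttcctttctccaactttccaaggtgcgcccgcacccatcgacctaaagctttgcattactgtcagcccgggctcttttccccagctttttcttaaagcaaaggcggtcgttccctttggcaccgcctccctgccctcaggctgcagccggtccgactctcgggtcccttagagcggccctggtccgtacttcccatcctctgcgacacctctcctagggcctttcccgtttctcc
Aldoc, which rose most, held ACGTG 1 time, on the opposite strand, in the window printed, 1 of its 2 in the table. Slc16a1, which fell most, held it 2 times on its own strand and 1 time on the other, with 1 CACGTG counted on both strands. Pfkfb4 and Dlat held none in these windows. Pdk2, lower than Dlat by fold change but not past the test, held ACGTG and CACGTG in 1 of its 2 windows and is not printed. Of the 33 members with a window (Slc2a3 had none in the table), 19 (57.6%) held ACGTG in at least 1. No such share per gene was computed over all genes. By window, 23 of their 50 (46.0%) held it, beside 19.6% of all 32851 windows and 24.5% of the 14361 windows of tested genes. Some windows of the same gene overlap, such as those of Aldoa and Eno1, so they are not all separate promoters. CACGTG was in 7 of 50 member windows (14.0%), 7.2% of all windows and 9.5% of those of tested genes. By fold change, ACGTG was held by 10 of the 16 members higher in High, 2 of the 3 lower and 7 of the 14 others. A match is a string of letters and shows no binding.

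Neither of the glucose transporters passed the test, while both hexokinases rose in Cyto-ID High. Hk2 encodes the inducible hexokinase of proliferating, muscle and tumour cells, bound to the outer mitochondrial membrane. In Female1, Female2, Male1 and Male2, in this order here and below, Hk2 stood at 216, 135, 157 and 189.5 CPM in Cyto-ID Low and at 602, 489, 527 and 686 CPM in Cyto-ID High (CPM are counts scaled to the TMM-corrected library total); the fold was 3.30. For Hk2 the log2 fold change was 1.72 with an SE of 0.20 (adjusted p 9.39e-05). The lowest High library lay above the highest Low library by more than the whole range in Low. Hk1, the hexokinase of most tissues, stood at 238, 297, 250.4 and 304 CPM in Cyto-ID Low and 352, 551, 409 and 768 CPM in Cyto-ID High. For Hk1 the log2 fold change was 0.92 with an SE of 0.24 (adjusted p 0.0102). Male2 High was the highest. With total-count scaling the Hk1 difference was 0.32 (adjusted p 0.148). Slc2a1, the basal glucose transporter GLUT1, had 296 to 419 CPM in Low and 242 to 336 CPM in High and did not pass (log2 fold change −0.28, SE 0.18, adjusted p 0.232). It was lower in High in 3 of 4 animals, and with total-count scaling it passed as lower (−0.83, adjusted p 0.00421). Slc2a3, the high-affinity transporter GLUT3 of neurons and leukocytes, had 2.11 CPM or less in every library (log2 fold change −0.90, SE 0.47, adjusted p 0.149). Its lowest value, 0.206 CPM, was in Male2 High, where leukocyte markers also summed lowest, 14.7 CPM. They summed to 38.3 to 105 CPM in the other High libraries and 81.6 to 122 CPM in Low, and of 8 tested 2 passed as lower and 1 as higher. The part of those cells in the result was not tested. Gpi1, which turns glucose phosphate into fructose phosphate, had 256 to 275 CPM in Low and 228 to 359.6 CPM in High, and its log2 fold change of 0.01 (SE 0.17, adjusted p 0.972) was −0.16 without Male2 High, the highest library. With total-count scaling Gpi1 passed as lower (−0.57, adjusted p 0.00271).

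Of the phosphofructokinase subunits, which form the tetramer of the committed step, Pfkl and Pfkm were modestly higher in High with TMM scaling and slightly lower, without passing, with total-count scaling (−0.15 and −0.07). Pfkp did not pass with TMM scaling and passed as lower with total counts (−0.40, adjusted p 0.0431). Pfkl, the liver-type subunit, had 154 to 161 CPM in Low and 190.2 to 261 CPM in High (log2 fold change 0.42, SE 0.15, adjusted p 0.0406), with no overlap. It lost the call in 6 of the 8 fits without 1 library. The adjusted p was 0.0519 to 0.0725 without Low Female1, Low Male1 or Low Male2, 0.0511 and 0.0674 without High Female2 or High Female1, and 0.113 without High Male2. The Pfkl call was lost too with no filter (0.183) and without both libraries of Female1, Male1 or Male2 (0.0818 to 0.133). Pfkm, the muscle-type subunit, had 19.9 to 27.0 CPM in Low and 26.2 to 44.4 CPM in High, overlapping (log2 fold change 0.51, SE 0.16, adjusted p 0.0272). It lost the call without High Female2, High Male2, Low Female1 or Low Male1 (adjusted p 0.0612 to 0.0811), or both libraries of Male1 (0.0665). Pfkp, the platelet type, had 135 to 195 CPM in Low and 172 to 208 CPM in High (log2 fold change 0.17, SE 0.17, adjusted p 0.456). The bifunctional enzymes that make and remove the phosphofructokinase activator fructose-2,6-bisphosphate went both ways. Pfkfb4 stood at 11.6, 8.72, 7.61 and 8.90 CPM in Cyto-ID Low and 39.6, 42.0, 34.3 and 41.7 CPM in Cyto-ID High, a 4.29-fold rise. For Pfkfb4 the log2 fold change was 2.10 with an SE of 0.15 (adjusted p 1.39e-05). Pfkfb3, the family member with the strongest kinase activity, stood at 11.6, 9.46, 7.74 and 11.6 CPM in Cyto-ID Low and 32.3, 34.2, 20.6 and 31.5 CPM in Cyto-ID High. For Pfkfb3 the log2 fold change was 1.55 with an SE of 0.19 (adjusted p 0.000139). Male1 was the lowest in both fractions. In both genes every High library was above every Low library. Pfkfb2, the heart-type enzyme, fell from 18.3 ± 2.97 to 13.3 ± 1.67 CPM (SD, n = 4 each), with no overlap (log2 fold change −0.46, SE 0.15, adjusted p 0.0280). Its call was lost without High Female1, High Female2, High Male2, Low Female1 or Low Male1, at adjusted p of 0.0538 to 0.095, with the same sign. The same held with no filter (0.0507) and without both libraries of Female1, Female2 or Male1 (0.0803 to 0.0919). Tigar, a phosphatase that removes the activator, had 9.69 to 14.4 CPM in Low and 10.3 to 13.1 CPM in High (log2 fold change 0.05, SE 0.18, adjusted p 0.854), and passed as lower with total-count scaling (−0.53, adjusted p 0.0284).

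Aldolases and triose phosphate isomerase all rose, 3 of 3, and Aldoc had the largest rise of the 34 genes under TMM and under total-count scaling. Aldoc, the aldolase isoform known from brain, stood at 6.89, 7.89, 6.09 and 9.84 CPM in Cyto-ID Low and 37.2, 42.6, 32.3 and 44.6 CPM in Cyto-ID High, a 5.10-fold rise. For Aldoc the log2 fold change was 2.35 with an SE of 0.19 (adjusted p 1.83e-05). Aldoa, the main aldolase of muscle and most cells, stood at 448, 479, 437 and 559 CPM in Cyto-ID Low and 1046, 1170.2, 1004 and 1584 CPM in Cyto-ID High. For Aldoa the log2 fold change was 1.32 with an SE of 0.19 (adjusted p 0.000347). Both genes separated the fractions in full, and Aldoa was the far more abundant: per kilobase of exon it had 165 to 413 CPM (mean in Low to mean in High) and Aldoc 2.35 to 12.0 CPM. Tpi1, which interconverts the triose phosphates, stood at 305, 304, 275 and 283 CPM in Cyto-ID Low and 583, 598, 532 and 702 CPM in Cyto-ID High. For Tpi1 the log2 fold change was 1.05 with an SE of 0.15 (adjusted p 0.000361). Male2 High was the highest. Within libraries, the log2 ratio of Aldoc to Aldoa counts was −5.98 ± 0.14 in Low and −4.92 ± 0.17 in High (log2, SD, n = 4 each), a difference of 1.06 without overlap. The exact two-sided permutation p was 0.0286, the smallest that 4 against 4 can give, and 0.114 after adjustment over the 8 ratios tested, so it did not pass.

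**Figure D3:**
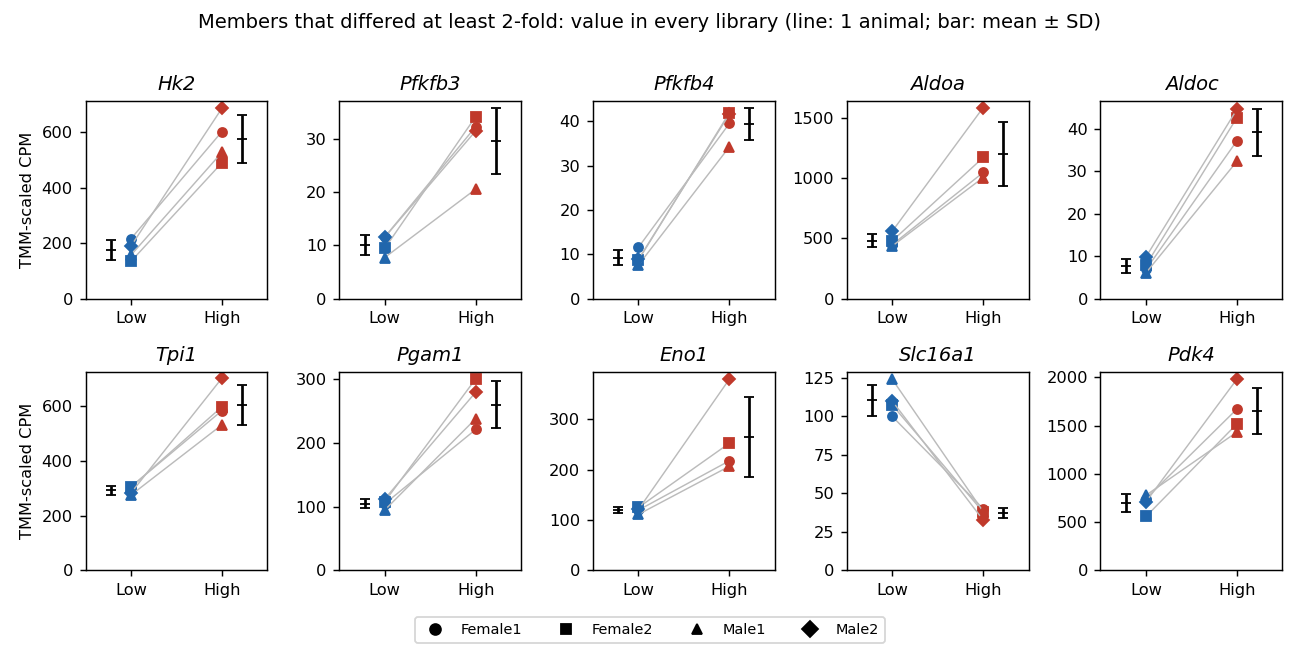
TMM-scaled CPM (y axes, from 0) of the 10 genes that passed with at least a 2-fold difference, in Cyto-ID Low (blue) and High (red); lines join the 2 libraries of an animal and bars give the mean ± SD of 4 libraries. In every panel the fractions do not overlap, 9 genes are higher in High under TMM and under total-count scaling, and Slc16a1 is lower under both.

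In the payoff phase, Pgam1, Eno1 and Pgk1 rose and Gapdh and Pkm did not pass. These genes have near-identical copies elsewhere in the mouse genome, so that their own counts are uncertain. Pgam1, a phosphoglycerate mutase, stood at 104, 108, 94.5 and 112 CPM in Cyto-ID Low and 221, 300.1, 238 and 279 CPM in Cyto-ID High. For Pgam1 the log2 fold change was 1.31 with an SE of 0.15 (adjusted p 0.000102). Eno1, the enolase of most tissues, stood at 119.8, 125, 111 and 121 CPM in Cyto-ID Low and 218, 253, 207 and 380.2 CPM in Cyto-ID High. For Eno1 the log2 fold change was 1.14 with an SE of 0.20 (adjusted p 0.00126). Male2 High was the highest of the High libraries, at 380.2 CPM, with the next at 253 CPM. Pgk1, which makes the first ATP of the payoff phase, had 25.6 to 50.6 CPM in Low and 48.8 to 54.6 CPM in High, overlapping because Low Female1 was at 50.6 CPM (log2 fold change 0.57, SE 0.20, adjusted p 0.0349). It lost the call without any 1 of High Female1, High Female2, High Male1, High Male2, Low Male1 or Low Male2 (adjusted p 0.0504 to 0.0744) and without both libraries of Male1 (0.117) or Male2 (0.098). With total-count scaling it was at 0.01. Gapdh, used in many assays as a constant reference, had only 30.9, 28.7, 27.3 and 24.9 CPM in Cyto-ID Low and 32.3, 32.1, 25.6 and 45.7 CPM in Cyto-ID High. For Gapdh the log2 fold change was 0.28 with an SE of 0.18 (adjusted p 0.247). Gapdh was higher in 3 of 4 animals and lower in Male1; with total-count scaling it was at −0.31 (adjusted p 0.0808). Pkm, pyruvate kinase of muscle and dividing cells, had 679.8 to 764 CPM in Low and 727 to 1010.4 CPM in High (log2 fold change 0.16, SE 0.17, adjusted p 0.460), and −0.41 with an adjusted p of 0.0188 under total-count scaling.

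The size of the copy problem was measured from the annotation. In GENCODE M21, 31 genes elsewhere in the genome, 28 of them annotated as processed pseudogenes, each held at least 10% of the 50-base windows of Gapdh exons, and these had 301606 counts over the 8 libraries against 6881 for Gapdh itself. Copies held more counts than the member also for Pgk1 (2 copies, 76915 against 9622), Eno1 (2 copies, 121443 against 40288) and Mpc1 (1 copy, 2925 against 2352). They held fewer for Pgam1 (1 copy, 25819 against 38323), Pkm (58735 against 171423), Pdhb (4875 against 19736) and Ldhb (579 against 741). How reads that match several loci were counted is not given in the sources used here. In a repeat chosen after seeing the data, the counts of each member and its copies were summed. Gapdh with its copies then stood at 1111, 1319, 1265 and 1414 CPM in Low and 1491, 1318, 1292 and 1792 CPM in High. Its log2 fold change in that fit was 0.21 (SE 0.16, adjusted p 0.329). Pgk1 with its copies stood at 299, 259.9, 261 and 283 CPM in Low and 555, 544, 516 and 485 CPM in High, now without overlap. Its summed log2 fold change was 0.93 (SE 0.12, adjusted p 0.000274). Summed, Pgam1 differed by 1.41 (SE 0.16, adjusted p 0.000101), Eno1 by 1.06 (SE 0.19, adjusted p 0.00120) and Pkm by 0.16 (SE 0.14, adjusted p 0.417). The sums of Ldhb (−0.47), Pdhb (0.12) and Mpc1 (−0.018) did not pass. Summing left 16 members higher and 3 lower, with the same genes called as before.

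**Figure D4:**
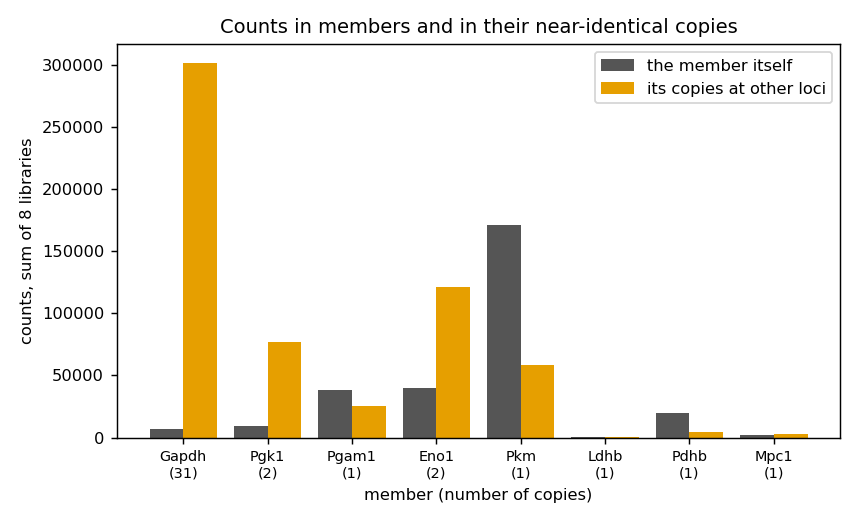
Counts summed over the 8 libraries (y axis, from 0) for the 8 members with copies at other loci, for the member itself (grey) and its copies (orange); the number of copies stands under each name. For Gapdh, Pgk1 and Eno1 the copies hold most of the counts, for Pkm and Pgam1 the member does.

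At the lactate step, Ldha rose and the lactate and pyruvate transporter Slc16a1 fell. Ldha encodes the lactate dehydrogenase subunit that favours making lactate. It stood at 542, 492, 459 and 494 CPM in Cyto-ID Low and 862, 825, 783 and 893 CPM in Cyto-ID High, without overlap (log2 fold change 0.76, SE 0.15, adjusted p 0.00182); with total-count scaling it was at 0.20 with an adjusted p of 0.201. Slc16a1, the monocarboxylate transporter MCT1, stood at 99.9, 107, 124 and 109.9 CPM in Cyto-ID Low and 40.1, 37.8, 38.2 and 32.7 CPM in Cyto-ID High, a drop to 0.337 of the Low level. For Slc16a1 the log2 fold change was −1.57 with an SE of 0.14 (adjusted p 2.15e-05). No High library came within a factor of 2 of any Low library, and the 4 High values were close together. Ldhb, the subunit that favours lactate use, had 4.29, 4.21, 3.29 and 3.08 CPM in Cyto-ID Low and 4.21, 2.05, 2.82 and 0.566 CPM in Cyto-ID High. For Ldhb the log2 fold change was −0.66 with an SE of 0.42 (adjusted p 0.234). Slc16a3, the lactate exporter MCT4, had 8.83, 6.49, 4.97 and 5.25 CPM in Cyto-ID Low and 12.2, 3.31, 7.40 and 1.03 CPM in Cyto-ID High. For Slc16a3 the log2 fold change was −0.12 with an SE of 0.53 (adjusted p 0.884). Both were scarce, and in both Male2 High was the lowest and Female1 High the highest High library. Marker sums of other cell types moved in the same order in High: fibroblast markers summed to 507, 164, 358 and 42.1 CPM, endothelial to 22.3, 7.40, 13.7 and 1.39 CPM, and erythroid to 161, 57.3, 105 and 9.77 CPM. In Low the ranges were 333 to 525, 9.63 to 19.4 and 65.4 to 126 CPM. Of these markers, 1 of 7 fibroblast genes and 0 of 5 endothelial and 0 of 5 erythroid genes passed as lower, and none was at 0 in all libraries of a fraction. Their part in Ldhb and Slc16a3 was not tested. The log2 ratio of Ldhb to Ldha counts was −7.07 ± 0.20 in Low and −8.74 ± 1.27 in High (log2, SD, n = 4 each), a difference of −1.68 without overlap (exact permutation p 0.0286, adjusted p 0.114), and −1.07 without Male2 High. For Slc16a3 to Slc16a1 the difference was 1.01 with overlap (exact p 0.286).

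At the entry to the mitochondrion, 3 of 4 pyruvate dehydrogenase kinases rose in High and the dehydrogenase subunit Dlat fell. With total-count scaling these kinases were still above 0, and Pdk4 alone passed, while Pdk3 was at 0.081. Pdk4, the kinase known to be induced by fasting and fatty acids, had 199 to 471 CPM per kilobase of exon. By their own counts this was the highest of the 34 genes, a scale that leaves out the copies of Gapdh. The length joined the exons of all annotated transcripts of a gene, and the rank depends on that choice. Pdk4 stood at 744, 559, 779 and 712 CPM in Cyto-ID Low and 1674, 1519, 1435 and 1983 CPM in Cyto-ID High. For Pdk4 the log2 fold change was 1.25 with an SE of 0.18 (adjusted p 0.000346). Every High library was at or above 1435 CPM and every Low library at or under 779 CPM. Pdk1, a known target of hypoxia-inducible factor, rose from 30.5 ± 5.20 to 59.2 ± 13.4 CPM (SD, n = 4 each), without overlap (log2 fold change 0.96, SE 0.20, adjusted p 0.00280), and was at 0.37 with an adjusted p of 0.0795 under total-count scaling. Pdk3 had 19.8 to 30.4 CPM in Low and 30.0 to 55.0 CPM in High, overlapping, and rose (log2 fold change 0.67, SE 0.21, adjusted p 0.0258), but its call was lost without High Female2, High Male2, Low Female1 or Low Male1 (adjusted p 0.0615 to 0.0802). Pdk2, the broadly expressed kinase, was lower in High in 4 of 4 animals, with 3.95 to 9.12 CPM in Low and 2.82 to 5.20 CPM in High, and did not pass (log2 fold change −0.82, SE 0.32, adjusted p 0.0546). With the animal as a block in the fit it passed, at −0.80 and an adjusted p of 0.0032, the only call among the 34 that the block changed. It passed in 8 of 22 alternatives, always as lower: with the block, with total-count scaling (−1.43, adjusted p 0.00302), with no filter (0.00524), with at least 10 counts in every library (0.0328) and with no covariate (0.0433). The others left out Low Female1 (0.0165), High Male2 (0.0413) or both libraries of Female1 (0.0334). Dlat, the acetyltransferase core of pyruvate dehydrogenase, fell from 64.1 ± 3.94 to 45.3 ± 6.78 CPM (SD, n = 4 each), without overlap (log2 fold change −0.50, SE 0.14, adjusted p 0.0147), and was at an adjusted p of 0.0531 without High Male1 and 0.0941 without both libraries of Male1. Pdha1 and Pdhb, the subunits of its dehydrogenase part, did not pass. Pdha1 had 164 to 211 CPM in Low and 129.7 to 199 CPM in High (log2 fold change −0.14, SE 0.17, adjusted p 0.562). Pdhb had 58.4 to 100.0 CPM in Low and 82.1 to 112 CPM in High (log2 fold change 0.16, SE 0.19, adjusted p 0.526). The mitochondrial pyruvate carrier, made of Mpc1 and Mpc2, did not pass either. Mpc1 had 9.73 to 12.2 CPM in Low and 8.28 to 11.4 CPM in High (log2 fold change −0.19, SE 0.16, adjusted p 0.365). Mpc2 had 18.8 to 24.5 CPM in Low and 14.4 to 20.0 CPM in High (log2 fold change −0.30, SE 0.16, adjusted p 0.153). With total-count scaling Pdha1 (−0.72), Mpc1 (−0.75) and Mpc2 (−0.84) passed as lower, as did Pdk2.

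Hif1a, the oxygen-regulated subunit of hypoxia-inducible factor, did not pass at the level of RNA. It stood at 236, 209, 259.5 and 261 CPM in Cyto-ID Low and 147, 242, 168 and 195 CPM in Cyto-ID High (log2 fold change −0.36, SE 0.18, adjusted p 0.143), lower in High in 3 of 4 animals and higher in Female2. Without High Female2 it passed as lower (−0.55, adjusted p 0.0176), without both libraries of Female2 (adjusted p 0.0119), and with total-count scaling as well (−0.94, adjusted p 0.000512). RNA says nothing of the protein, which is set largely by its degradation. Among 8 partners and oxygen sensors of the factor, 3 of 7 tested rose and 0 fell (median 0.38). They were Egln3 (2.11, SE 0.27, adjusted p 0.000184), a prolyl hydroxylase and itself a target, Vhl (0.71, SE 0.16, adjusted p 0.00470), the ubiquitin ligase subunit that recognises the hydroxylated factor, and Epas1 (0.65, SE 0.24, adjusted p 0.0473), the alternative alpha subunit. With total-count scaling 1 of the 7 was higher and 2 lower, and the 1 was Egln3. Of 12 further known targets, 4 rose and 2 fell (median 0.07). Those that rose were Higd1a (2.07, SE 0.14, adjusted p 1.30e-05), Ndrg1 (2.06, SE 0.28, adjusted p 0.000249), Mxi1 (1.55, SE 0.23, adjusted p 0.000425) and Vegfa (1.27, SE 0.15, adjusted p 0.000110). The genes that fell, named after their values were seen, were Car9 (−1.21, SE 0.27, adjusted p 0.00398), a carbonic anhydrase of the cell surface, and P4ha1 (−0.62, SE 0.23, adjusted p 0.0492), a collagen prolyl hydroxylase subunit. Higd1a, a mitochondrial protein, had 14.8 to 18.8 CPM in Low and 64.2 to 80.9 CPM in High, and Vegfa, the vascular growth factor, 25.0 to 45.2 CPM in Low and 62.8 to 101 CPM in High. The shares of all genes were 23.4% higher and 25.3% lower.

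The pathways that branch from glycolysis moved unevenly. They were chosen by function, and counts are given beside the background of 23.4% higher and 25.3% lower. Of 9 pentose phosphate genes 4 rose and 3 fell (median 0.36). The largest rises were in G6pdx (2.06, SE 0.26, adjusted p 0.000152), Taldo1 (1.92, SE 0.18, adjusted p 3.15e-05) and Pgd (1.83, SE 0.24, adjusted p 0.000177), the NADPH-making dehydrogenases and transaldolase, and Prps2 (−1.27, SE 0.16, adjusted p 0.000149), a nucleotide precursor enzyme, fell. G6pdx, the entry enzyme, had 80.5 to 117 CPM in Low and 272 to 580.0 CPM in High. Of 8 gluconeogenesis genes 4 were tested, and 2 rose, Fbp2 (2.52, SE 0.27, adjusted p 5.99e-05) and Pcx (2.34, SE 0.22, adjusted p 3.04e-05), and 2 fell, Pck2 (−1.68, SE 0.16, adjusted p 3.21e-05) and G6pc3 (−0.83, SE 0.22, adjusted p 0.0102). Pcx, pyruvate carboxylase, sends pyruvate to oxaloacetate and had 36.8 to 56.0 CPM in Low and 174 to 324 CPM in High. Of 14 glycogen genes 13 were tested, 3 rose and 5 fell (median −0.01), including Pygb (−1.07, SE 0.13, adjusted p 0.000122) and Gys1 (−0.94, SE 0.15, adjusted p 0.000525) that fell, a phosphorylase and a synthase, and Phkb (0.87, SE 0.23, adjusted p 0.0104) that rose, a phosphorylase kinase subunit. Of 16 citric acid cycle genes 2 rose and 4 fell (median 0.03), with Idh3g (−0.98, SE 0.15, adjusted p 0.000426), Idh3a (−0.98, SE 0.13, adjusted p 0.000239) and Sdhd (−0.74, SE 0.12, adjusted p 0.000608) lower and Ogdh (0.83, SE 0.19, adjusted p 0.00427) higher. Of 32 other glycolytic and pyruvate genes 23 were tested, 2 rose and 7 fell (median −0.32), and the largest falls at a mean of at least 5 CPM were Slc16a7 (−3.72, SE 0.30, adjusted p 1.83e-05), Slc2a9 (−2.43, SE 0.31, adjusted p 0.000156), Pdp1 (−1.07, SE 0.21, adjusted p 0.00216) and Eno3 (−0.92, SE 0.25, adjusted p 0.0118). Slc16a7, the monocarboxylate transporter MCT2, had 8.24 to 11.8 CPM in Low and 0.381 to 0.977 CPM in High, and Pdp1, the phosphatase that reactivates pyruvate dehydrogenase, 15.3 to 35.2 CPM in Low and 10.8 to 13.6 CPM in High. Below that mean, and named after their values were seen, the glucose transporter genes Slc2a4 (−3.28, SE 0.43, adjusted p 0.000187), which encodes GLUT4, and Slc2a12 (−1.95, SE 0.32, adjusted p 0.000705) fell as well. With total-count scaling no glycogen and no citric acid cycle gene was higher and 8 and 12 were lower, in a fit that called 12.6% of all genes higher and 49.1% lower. The pentose phosphate and gluconeogenesis rises named here kept their sign, as did the falls. With the animal as a block, Suclg1, Rpe and Gyg also passed as higher (adjusted p 0.0475, 0.0431 and 0.0323) and Suclg2 and Pdpr as lower (0.00984 and 0.0313), named after their values were seen.

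Levels can be compared between genes only per length of exon, here the joined exons of all annotated transcripts of a gene. The order of genes depends on that length, and other lengths were not tried. On that scale (mean CPM per kilobase, Low to High) the highest in Low after Pdk4 and Aldoa were Ldha at 150.1 to 254, Pkm at 144 to 161, Tpi1 at 106 to 219 and Slc2a1 at 103 to 85.9. In High, Tpi1 was above Pkm, and Pgam1 (131) and Hk2 were above Slc2a1. The order uses each gene's own counts, and so does not place Gapdh, Pgk1 and Eno1, most of whose counts were in copies. With lengths of 8.53 kb for Hk1 and 5.97 kb for Hk2, hexokinases were near equal in Low, Hk1 at 31.9 and Hk2 at 29.2. Hk2 was then the higher in High, 96.5 against 60.9. Before division by length, mean CPM of Hk1 and Hk2 were 272 and 174 in Low and 520 and 576 in High. Which of them is the higher in a fraction thus depends on the length used. The log2 ratio of Hk2 to Hk1 counts, which no scaling of libraries can move, was higher in High by 0.86 on average, and the 4 and 4 values overlapped (exact permutation p 0.0857, adjusted p 0.229). Within animals it was higher in High in 4 of 4, by 0.92, 0.97, 1.04 and 0.52. Over these pairs the exact permutation p was 0.125, the smallest that 4 pairs can give. None of the 8 isoform ratios passed after adjustment. Slc16a1 went from 24.9 to 8.40 CPM per kilobase, and Slc2a3, the lowest gene, was at 0.253 to 0.147. A difference between males and females in the effect of the fraction passed for 0 genes, members included (edgeR interaction test, 2 males and 2 females, 0.0% of 17344 genes). At an unadjusted p under 0.05 there were 19 genes (0.11%) and 0 members, and the smallest member p was 0.198, for Slc2a3. A share of 0.11% is far under what this threshold gives by chance, so the interaction test was too conservative to call much. Its 0 calls do not show that the sexes were alike.

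In GENCODE M21 on GRCm38, Hk2 lies at chr6:82725025-82774454, Pfkfb4 at chr9:108991778-109032228 and Aldoc at chr11:78322968-78327781, Slc16a1 lies at chr3:104638668-104658462 and Pdk4 at chr6:5483351-5496309. Some members share exon sequence with genes that overlap them, and strandedness is not given in the sources used here. The share of exon bases covered was 23.1% for Mpc1 (by 4930506C21Rik on the other strand), 17.4% for Pfkfb2 (by Gm29427 on the same strand), 16.1% for Pdha1 (by Map3k15, other strand), 15.3% for Pkm (Gm49759, same strand), 11.5% for Gpi1 (Gm26762, other strand) and 10.2% for Pfkm (Gm26513, same strand). Hif1a, Pfkp, Tigar, Slc2a1, Hk1, Gapdh, Tpi1 and Aldoa had 5.6% or less covered by any 1 gene, and the other 20 members had none. How reads in these stretches were counted is not known here, so the values of these genes are uncertain to that extent.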

How the data were processed

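Bulk RNA-seq was measured in 8 libraries. The authors deposited whole-number read counts per gene symbol for each; that they are raw counts follows from their differing totals. Per the submitters' processing notes, STAR 2.7.3, DESeq2 and GRCm38 were used; the roles, counting tool, annotation and strandedness are not given in the sources used here. Same-named libraries of both fractions are from 1 animal by their titles; deviations from the fraction means correlated at 0.43, 0.32, −0.02 and 0.28 across genes in Female1, Female2, Male1 and Male2, and at −0.37 to 0.35 between different animals, highest for High Male1 with Low Female1. The check did not single out the pairs, which rest on the titles. No libraries of a fraction agreed within sampling noise.

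The count analysis used edgeR 4.0.16 under R 4.3.3 (filterByExpr by fraction, TMM, glmQLFit and glmQLFTest, sex as covariate, two-sided) on the whole table, with Benjamini-Hochberg adjustment over 17344 genes at 0.05. SE is the log2 fold change divided by the root of F. Log2 CPM used a prior count of 2, ratios a pseudocount of 0.5, and ratios were tested in scipy 1.17.1. Exon lengths, overlaps and copies are from GENCODE M21, and an exon length joins the exons of all transcripts of a gene. Alternatives were RLE and total-count scaling, no filter, at least 10 counts, robust dispersion, DESeq2 1.42.0, limma-voom (limma 3.58.1), a fit without sex, a replicate block by animal, each library and each animal left out, and, chosen after seeing the data, summed copies. The members, lists and tests were chosen with earlier results of these data known. All 34 members are named; values in all 8 libraries are printed for those that passed with at least a 2-fold difference, for both genes of a non-overlapping ratio, for Gapdh and Hif1a, and for Hk1 and Slc16a3, added after their values were seen. Of each pathway list, up to 4 genes with the largest log2 fold change past the threshold and a mean of at least 5 CPM are named; 1 of them is not reported here.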

Additional observations from a re-analysis of the deposited data

Results flagged for a closer look

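In 2 of the 68 groups of 4 libraries (34 genes in each fraction), 1 library lay far from the other 3 by Dixon's criterion; chance gives about 1 in 20 groups. Both were in the Cyto-ID High library of Male2, the library with the fewest genes with a count. Gpi1 stood at 359.6 CPM there and at 228 to 246 CPM in the other High libraries. Pkm stood at 1010.4 CPM there and at 727 to 755 CPM in the others.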

How the results depend on the processing

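The 9 members with at least 2-fold rises and Slc16a1 kept their direction and call in all 22 alternatives tried, and Slc2a3 (21 alternatives) and Ldhb never passed; 23 members, these 12 included, kept direction and call in every alternative except total-count scaling. Total counts gave 9 members higher and 13 lower, a median of −0.35, and negative log2 fold changes for Gpi1 (−0.57), Pfkl (−0.15), Pfkm (−0.073), Pfkp (−0.40), Tigar (−0.53), Gapdh (−0.31), Pkm (−0.41) and Pdhb (−0.40). There, 12.6% of all genes were higher and 49.1% lower. Higher and lower genes numbered 1 and 13 of the other glycolytic genes and 0 and 8 of the glycogen genes. They numbered 0 and 12 of the citric acid cycle genes and 1 and 2 of the partners of hypoxia-inducible factor. Of the factor's further targets, 4 were lower. The 4 that rose with TMM scaling, Vegfa, Ndrg1, Higd1a and Mxi1, still passed as higher with total counts. Gpi1, near 0 in the report, was −0.033 with no filter, −0.016 with at least 10 counts, −0.0069 with limma-voom, −0.01 with the replicate block, −0.007 without animal Female1 and −0.11 without animal Male2. Tigar was −0.0072 without animal Male2. Slc16a3 was 0.041 without animal Female2 and 0.25 without animal Male2. Without animal Male1, 1 member was lower. Leaving out 1 library at a time gave 12 to 16 members higher, 2 to 3 lower, 14 to 19 called in all and medians of 0.17 to 0.32; Gpi1 ran from −0.16 to 0.11, Tigar from −0.063 to 0.20 and Slc16a3 from −0.70 to 0.23. The replicate block called 16 members higher and 4 lower and changed no member's call but that of Pdk2; in the pathway lists it added 3 higher and 2 lower genes. The cause of these changes was not tested, and 4 animals limit the precision.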
